A study of Mus musculus with 3 samples.

Results

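Type I interferon response genes are transcripts that cells raise when interferon alpha or beta binds at their surface. The module described here was a list of 38 such genes, and its members were the rows of the 3 count matrices that carry one of these symbols. A row was found for 37 of the 38 among 34099 genes in all, and Mx2 was not analysed here. The matrices came from droplet 3′ single-cell RNA sequencing of mouse liver, with 1 mouse and 1 library per group. All 3 mice received 500 mg/kg of APAP (paracetamol, a drug that injures the liver in overdose), an infusion 6 hours later, and had the liver collected after 4 days. The infusion held mesenchymal stromal cells (MSC) engineered with bispecific polyvalent peptides in the first group, native MSC in the second, and phosphate-buffered saline (PBS) in the third. Strain, sex, age and the origin of the MSC are not given in the labels used here, and no uninjured liver was among the 3 libraries. With 1 mouse per group there was no replicate and no test, so a difference describes these libraries, and "higher" and "lower" compare 2 libraries only. All intervals are exact 95% intervals and cover counting error alone.

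Interferon alpha and beta bind a receptor made of Ifnar1 and Ifnar2, whose kinases activate Stat2. Stat2 and Irf9 take part in a complex that binds the interferon-stimulated response element near the start of the module's genes, and Irf7 amplifies the production of interferon. Many of the products sense, cut or trap viral nucleic acid and particles, while Usp18 limits signalling at the receptor. In the liver, Kupffer cells (the resident macrophages), sinusoidal endothelium (the lining of the blood channels between hepatocytes) and incoming monocytes all answer interferon.

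The start regions of 6 members that hold the response element are printed to show how it is spelled and where it lies. Each line holds the 200 bases before the start of the gene in RefSeq (GRCm38.p6, an older build than the GRCm39 of the counts), read on the strand of the gene. Capitals mark matches on either strand to the core of the response element, spelled GAAA, any 2 bases, GAAA, with overlapping matches run together.
Ifit1 (chr19:34640689-34640888, plus strand): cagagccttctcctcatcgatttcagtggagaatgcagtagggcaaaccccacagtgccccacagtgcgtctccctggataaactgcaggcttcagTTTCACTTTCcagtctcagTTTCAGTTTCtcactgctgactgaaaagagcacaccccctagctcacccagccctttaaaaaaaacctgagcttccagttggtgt
Ifit3 (chr19:34583329-34583528, plus strand): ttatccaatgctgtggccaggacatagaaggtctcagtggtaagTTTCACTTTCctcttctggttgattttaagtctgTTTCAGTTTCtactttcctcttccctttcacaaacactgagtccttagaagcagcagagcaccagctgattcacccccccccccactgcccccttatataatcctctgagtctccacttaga
Ifit3b (chr19:34607757-34607956, plus strand): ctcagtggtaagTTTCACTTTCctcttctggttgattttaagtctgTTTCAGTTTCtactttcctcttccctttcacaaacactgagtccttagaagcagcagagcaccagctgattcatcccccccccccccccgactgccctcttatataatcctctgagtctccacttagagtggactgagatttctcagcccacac
Isg15 (chr4:156200819-156201018, minus strand): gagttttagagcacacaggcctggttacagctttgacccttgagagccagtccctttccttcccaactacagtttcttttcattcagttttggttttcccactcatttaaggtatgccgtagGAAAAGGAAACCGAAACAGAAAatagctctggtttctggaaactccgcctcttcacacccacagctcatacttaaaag
Rsad2 (chr12:26456453-26456652, minus strand): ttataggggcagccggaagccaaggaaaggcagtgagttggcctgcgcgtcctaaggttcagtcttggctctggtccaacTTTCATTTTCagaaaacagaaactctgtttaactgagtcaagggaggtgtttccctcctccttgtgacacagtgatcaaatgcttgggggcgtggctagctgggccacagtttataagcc
Bst2 (chr8:71537473-71537672, minus strand): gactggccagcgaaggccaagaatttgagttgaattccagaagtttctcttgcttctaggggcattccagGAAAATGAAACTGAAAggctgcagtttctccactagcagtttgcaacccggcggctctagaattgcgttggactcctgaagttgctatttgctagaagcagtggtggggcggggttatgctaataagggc
Ifit1, Ifit3 and Ifit3b belong to a family whose products bind foreign RNA, Isg15 is a ubiquitin-like modifier, Rsad2 encodes the antiviral enzyme viperin, and Bst2 encodes tetherin, which holds budding virus at the membrane. Isg15 held 3 overlapping matches that began 78, 72 and 66 bases before its start. Ifit1 held 2 matches, at 104 and 85 bases, and Ifit3 held 2, at 156 and 122 bases, all read on the opposite strand. Over windows of 250 bases before to 50 bases after the start, this core was found on either strand for 16 of the 28 members with an entry (57.1%), against 1079 of all 27025 genes with an entry (3.99%). The core followed by C was found for 13 of the 28 members (46.4%) and for 0.944% of all genes. Ifi44, Ifit2, Oasl2, Irf7 and Cmpk2, which are also described below, had no match in this window. A match describes letters in this window and does not measure binding.

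The libraries held 62564254 UMIs (unique molecular identifiers, counted once per captured transcript) in 11028 barcodes for engineered MSC, 84950721 in 11479 barcodes for native MSC and 82247448 in 10739 barcodes for PBS. After filtering, 9131 cells of engineered MSC, 9175 of native MSC and 9534 of PBS remained, with a median of 3668 UMIs per cell in engineered MSC, 5659 in native MSC and 5781 in PBS. Any 2 libraries shared between 39 and 46 barcode sequences. Cells were clustered without the members, and clusters were named from marker genes, so each class name below is short for cells like that type ("X-like"). The defining markers were found, for example Stab2 in sinusoidal endothelium at 2983 CPM in engineered MSC, 2482 CPM in native MSC and 2109 CPM in PBS, Clec4g in the same cells at 1649 CPM in engineered MSC, 1339 CPM in native MSC and 565 CPM in PBS, and Clec4f in Kupffer cells at 2006 CPM in engineered MSC, 2932 CPM in native MSC and 1309 CPM in PBS, where CPM is UMIs per 1000000 UMIs of the class. Markers of some other classes were less even or lower. Apob in hepatocytes had 399 CPM in engineered MSC, 113 CPM in native MSC and 56.4 CPM in PBS. Ace in patrolling monocytes had 78.5 CPM in engineered MSC, 30.6 CPM in native MSC and 65.8 CPM in PBS. Cells left without a name made up 6.92% of engineered MSC, 3.50% of native MSC and 4.47% of PBS. Several classes were held by different clusters in different libraries, and those clusters are named beside the values.

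Over whole libraries, the 37 members together stood at a similar level, with 3159 CPM in engineered MSC, 2955 CPM in native MSC and 3077 CPM in PBS. Much of that sum was Ifitm3, which blocks virus entry and had 860.3 CPM in engineered MSC, 1364 CPM in native MSC and 908 CPM in PBS, and Bst2, which had 482 CPM in engineered MSC, 269.6 CPM in native MSC and 434 CPM in PBS. Sums below therefore leave these 2 members out and add the other 35. The 35 members had 1817 CPM (1805 to 1828) in engineered MSC, 1321 CPM (1312 to 1329.6) in native MSC and 1736 CPM (1726 to 1745) in PBS. Engineered MSC and PBS were close and native MSC was the lowest.

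Of the 37 members, 19 were highest in engineered MSC, 5 in native MSC and 13 in PBS. Native MSC was the lowest library for 26 of them. The same counts were not made over all genes, and the libraries differed in their mix of cells, so these counts do not set the module apart. Ifi44, which interferon induces in many cell types, had 62.0 CPM in engineered MSC, 4.32 CPM in native MSC and 10.7 CPM in PBS. Ifit2, another RNA-binding family member, had 65.2 CPM in engineered MSC, 17.2 CPM in native MSC and 29.6 CPM in PBS. Both were highest in engineered MSC. Oasl1, which in mice restrains the translation of Irf7, had 24.4 CPM in engineered MSC, 28.6 CPM in native MSC and 45.6 CPM in PBS, and Dhx58, the RNA sensor LGP2, had 21.7 CPM in engineered MSC, 25.4 CPM in native MSC and 41.6 CPM in PBS, so these were highest in PBS. Isg20, an RNA exonuclease, had 13.6 CPM in engineered MSC, 24.9 CPM in native MSC and 6.77 CPM in PBS and was one of the few highest in native MSC. Trim30a had 206 CPM in engineered MSC, 146 CPM in native MSC and 197 CPM in PBS and Slfn5 had 168 CPM in engineered MSC, 111 CPM in native MSC and 168 CPM in PBS, the most abundant members after Ifitm3 and Bst2 by UMIs, which in a 3′ assay do not scale with transcript length. Isg15 and Parp14, an ADP-ribosyltransferase, came next with nearly equal totals of 17359 and 17328 UMIs. Isg15 had 87.4 CPM in engineered MSC, 95.1 CPM in native MSC and 88.7 CPM in PBS. Parp14 had 113 CPM in engineered MSC, 65.7 CPM in native MSC and 98.3 CPM in PBS. The lowest total was that of Ifit3b, with 14.0 CPM in engineered MSC, 4.26 CPM in native MSC and 5.95 CPM in PBS.

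Whole-library sums mix cells in very different proportions. Sinusoidal endothelium supplied 30.4% of the UMIs of the 35 members in engineered MSC, 1.07% in native MSC and 6.98% in PBS. Macrophages supplied 13.2% in engineered MSC, 22.8% in native MSC and 41.2% in PBS. Classical monocytes supplied 1.57% in engineered MSC, 30.7% in native MSC and 20.3% in PBS. With the 14 classes that had at least 30 cells in every library weighted alike, the 35 members averaged 2063 CPM in engineered MSC, 1389 CPM in native MSC and 1528 CPM in PBS. Levels within classes are described next.

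**Figure D1:**
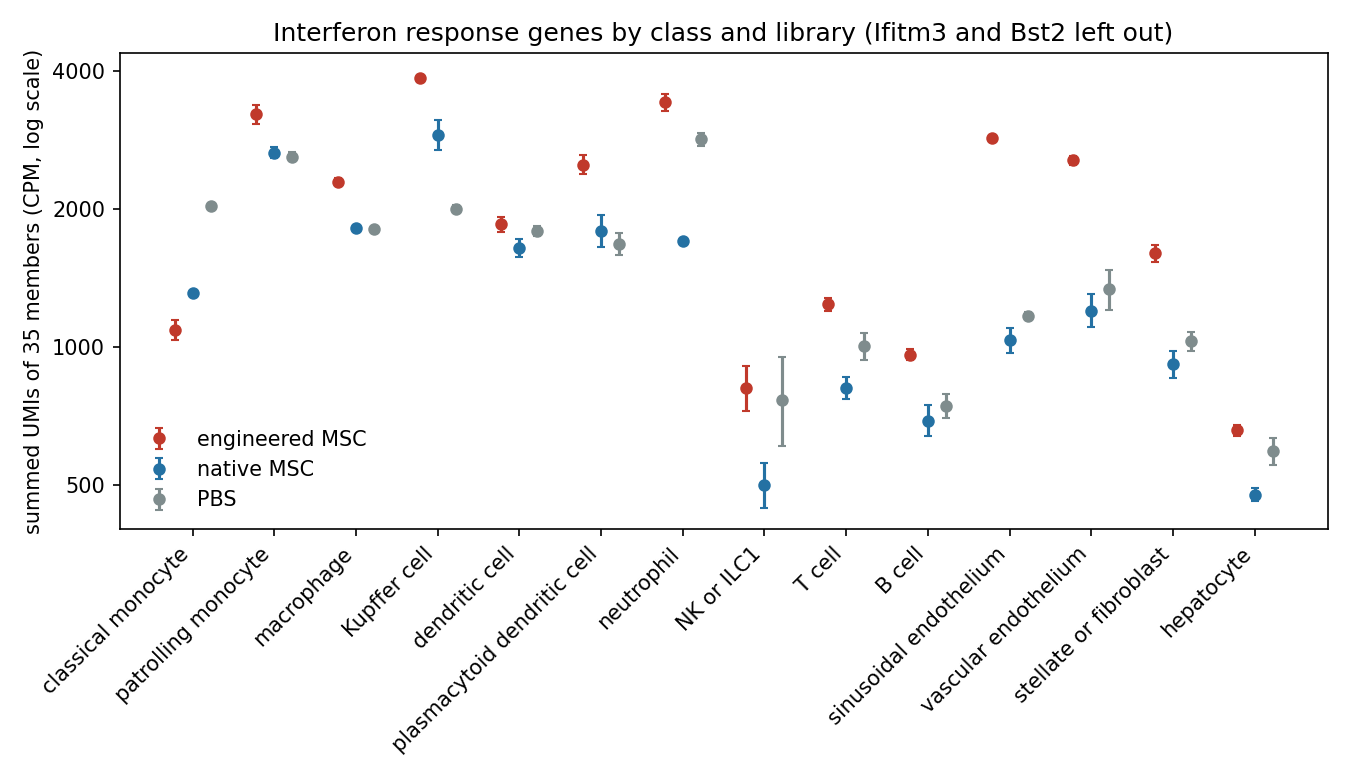
Summed level of 35 members (without Ifitm3 and Bst2) in CPM, on a log axis, for each of 14 classes in the engineered MSC, native MSC and PBS libraries; bars are exact Poisson 95% intervals of counting error. Engineered MSC had the highest value of the 3 libraries in 13 of the 14 classes, with overlapping intervals in some, and the lowest in classical monocytes (1089 CPM).

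Sinusoidal endothelium held the largest ratio between engineered MSC and PBS of the 14 classes (the class had 1453 cells in engineered MSC, 83 in native MSC and 1042 in PBS). The 35 members summed to 2859.8 CPM in engineered MSC, 1035 CPM in native MSC and 1167 CPM in PBS, and the ratio of engineered MSC to PBS was 2.45 (2.39 to 2.51). A ratio was formed for a member with at least 20 UMIs in the 2 libraries together, which all 37 met. Of the 37, 23 were at least 2-fold higher in engineered MSC than in PBS, beside 10.9% of all genes, and 0 were at least 2-fold lower, beside 10.1% of all genes. The median log2 ratio was 1.20 over the members and -0.01 over all genes. Native MSC differed from PBS in the other direction and by less, with a median of -0.20 over 34 members beside -0.07 over all genes, 0 members at least 2-fold higher (all genes 5.58%) and 3 at least 2-fold lower (all genes 8.07%).

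Of the RNA-binding members (Ifit1, Ifit2, Ifit3, Ifit3b and Eif2ak2), 4 of 5 were at least 2-fold higher in sinusoidal endothelium of engineered MSC than in PBS, beside 10.9% of all genes, with a median log2 ratio of 2.74. Ifit3 had 85.6 CPM in engineered MSC, 13.8 CPM in native MSC and 10.4 CPM in PBS, a ratio of engineered MSC to PBS of 8.23 (6.52 to 10.5). Ifit2 had 172 CPM in engineered MSC, 43.6 CPM in native MSC and 25.7 CPM in PBS, a ratio of 6.68 (5.75 to 7.80) to PBS, and it was also above PBS in native MSC, at 1.70 (1.18 to 2.39). Ifit1, which recognises the cap of foreign RNA, had 44.5 CPM in engineered MSC, 1.06 CPM (1 UMI) in native MSC and 6.40 CPM in PBS. Ifit3b, a near-identical copy of Ifit3, had 32.2 CPM in engineered MSC, 1.06 CPM (1 UMI) in native MSC and 5.34 CPM in PBS. For the IFIT genes the engineered MSC library stood clear of both others. Reads of near-identical copies (Ifit3 with Ifit3b, Oas1a with Oas1g, Slfn8 with Slfn9, Trim30a with Trim30d) may have been split or dropped in counting, so the levels of these members are uncertain.

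Sensors and feedback genes were also higher. All 4 sensors (Ifih1, Dhx58, Ddx60 and Zbp1) were at least 2-fold higher in engineered MSC than in PBS, beside 10.9% of all genes, among them Ddx60, a helicase linked to RNA sensing, with 99.6 CPM in engineered MSC, 13.8 CPM in native MSC and 17.5 CPM in PBS. Isg15 had 94.4 CPM in engineered MSC, 19.2 CPM in native MSC and 21.7 CPM in PBS, and Usp18, the protease that removes Isg15 from proteins, had 35.8 CPM in engineered MSC, 8.52 CPM (8 UMIs) in native MSC and 14.4 CPM in PBS. The intervals of their ratios to PBS, 4.34 (3.67 to 5.16) for Isg15 and 2.49 (2.00 to 3.11) for Usp18, did not overlap. Of the transcription factors, Irf7 had 32.1 CPM in engineered MSC, 8.52 CPM (8 UMIs) in native MSC and 10.5 CPM in PBS, Stat2 had 83.8 CPM in engineered MSC, 29.8 CPM in native MSC and 42.2 CPM in PBS, and Irf9 had 73.7 CPM in engineered MSC, 41.5 CPM in native MSC and 62.2 CPM in PBS. The order of the ratios to PBS was thus Irf7 at 3.05 (2.38 to 3.95), Stat2 at 1.99 (1.74 to 2.27) and Irf9 at 1.19 (1.05 to 1.33).

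Effector genes were less uniform in the same cells. Rsad2 had 137 CPM in engineered MSC, 30.9 CPM in native MSC and 51.4 CPM in PBS, with native MSC below PBS. Isg20 had 11.2 CPM in engineered MSC, 3.19 CPM (3 UMIs) in native MSC and 1.07 CPM (8 UMIs) in PBS, a ratio of engineered MSC to PBS of 10.5 (5.15 to 25) that rests on 8 UMIs in PBS. Oasl2, a relative of the OAS enzymes that sense double-stranded RNA, had 115 CPM in engineered MSC, 26.6 CPM in native MSC and 47.4 CPM in PBS, and 2 of 5 members of that group were at least 2-fold higher, beside 10.9% of all genes. The abundant membrane proteins differed less, with Bst2 at 884 CPM in engineered MSC, 607 CPM in native MSC and 579 CPM in PBS and Ifitm3 at 1011 CPM in engineered MSC, 823 CPM in native MSC and 820.4 CPM in PBS.

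The sinusoidal cells of engineered MSC and of the other libraries lay largely in different clusters. Cluster 7 held 1379 cells of engineered MSC, 5 of native MSC and 2 of PBS, and cluster 10 held 74 cells of engineered MSC, 78 of native MSC and 1040 of PBS. The 35 members had 3029 CPM in the cluster 7 cells of engineered MSC. In cluster 10 they had 1590.1 CPM in engineered MSC, 1030.1 CPM in native MSC and 1167 CPM in PBS, a ratio of engineered MSC to PBS of 1.36 (1.29 to 1.43). Within cluster 10, 4 of 34 members were at least 2-fold higher in engineered MSC than in PBS (all genes 6.57%), 1 was at least 2-fold lower (all genes 7.81%), and the median log2 ratio was 0.45. The direction was the same in the shared cluster, while the size was smaller, and for cluster 7 the library and the state of the cells cannot be told apart.

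Transcripts of hepatocytes moved with this result. They made up 0.438% of the UMIs of sinusoidal endothelium in engineered MSC, 0.0936% in native MSC and 0.0372% in PBS. In engineered MSC 17 of 17 genes of that list were at least 2-fold higher than in PBS, beside the share of all genes given above for this class. In each of the 14 classes this share was highest in engineered MSC, and its part in the results was not tested. Hepatocytes themselves had the lowest level of the 35 members of all 14 classes in each library, with 658 CPM in engineered MSC, 477 CPM in native MSC and 592 CPM in PBS.

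**Figure D2:**
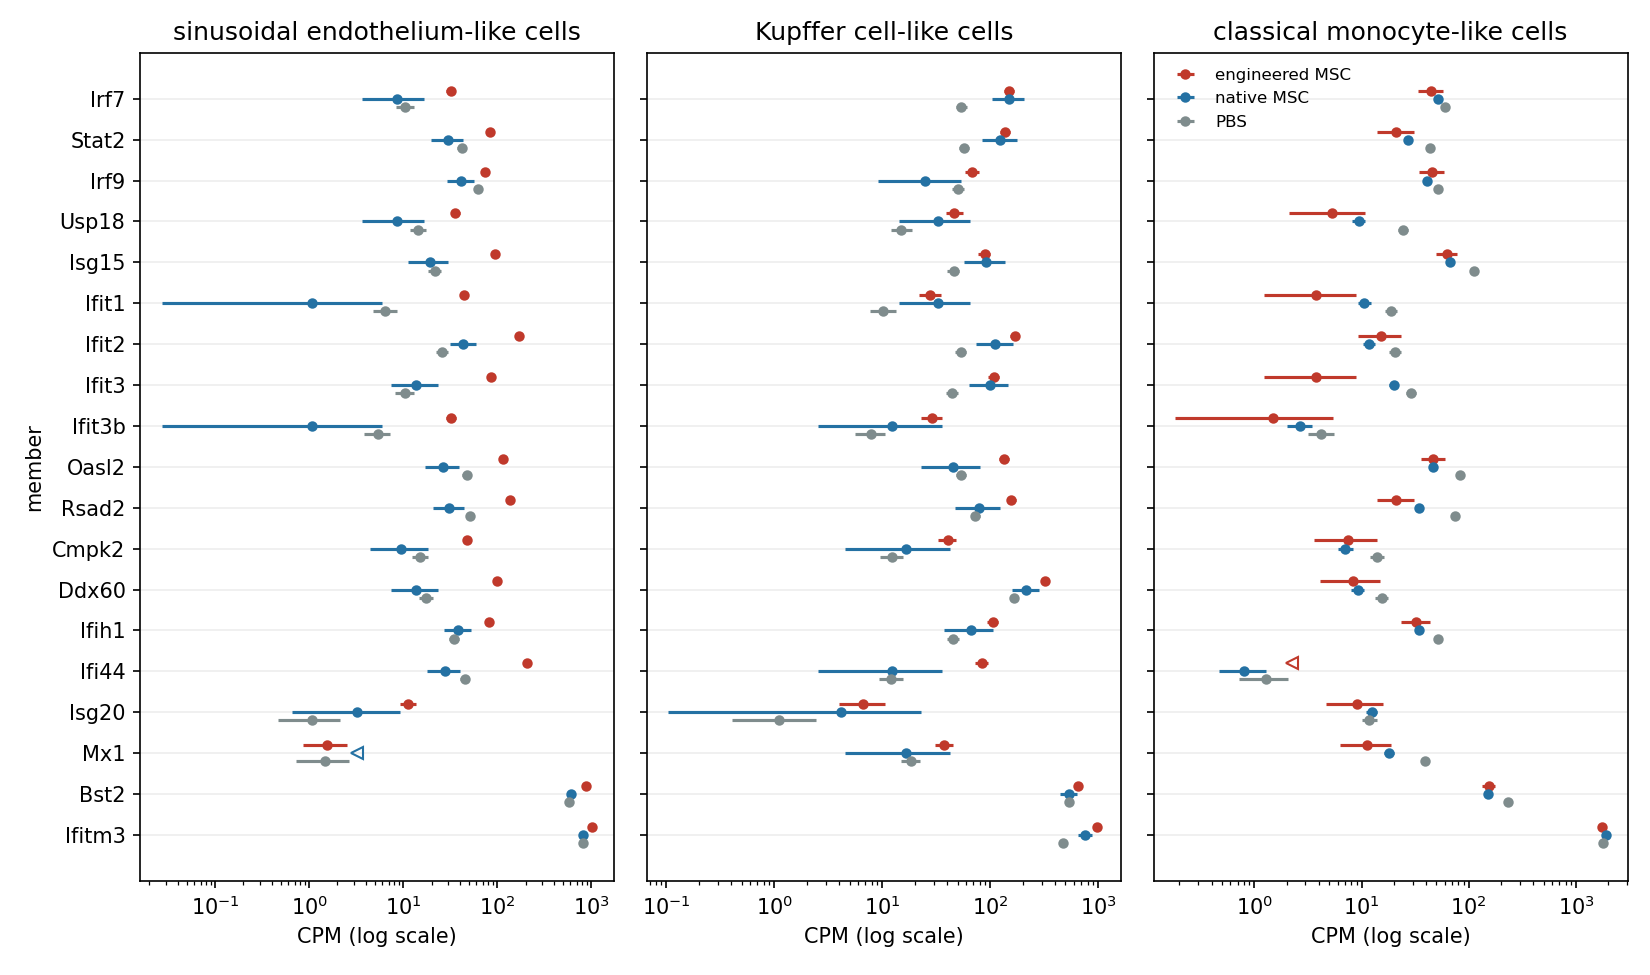
Levels in CPM (log axis) of single members in sinusoidal endothelium, Kupffer cells and classical monocytes for engineered MSC, native MSC and PBS, with exact Poisson 95% intervals; open triangles mark the level of 3 UMIs for a member with 0 UMIs. Ifit3 stood at 85.6 CPM in engineered MSC and 10.4 CPM in PBS in sinusoidal endothelium, and at 3.77 CPM in engineered MSC and 29.1 CPM in PBS in classical monocytes.

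Vascular endothelium, the lining of larger vessels, lay in 1 cluster in all libraries and had 301 cells in engineered MSC, 43 in native MSC and 45 in PBS. The 35 members summed to 2549.6 CPM in engineered MSC, 1200.1 CPM in native MSC and 1335 CPM in PBS, a ratio of engineered MSC to PBS of 1.91 (1.73 to 2.12). Of 33 members, 15 were at least 2-fold higher in engineered MSC than in PBS (all genes 14.5%), 0 were at least 2-fold lower (all genes 9.29%), and the median log2 ratio was 0.86 beside 0.05 over all genes. For 5 of these 15 (Herc6, Irf7, Isg20, Oas1a and Oasl1) the interval of the ratio included 1, and Isg20, Oas1a and Oasl1 had 1 UMI each in PBS. A member could reach the minimum of 20 UMIs through engineered MSC alone, which had 2494498 UMIs in this class against 294471 in PBS. Rtp4, a receptor chaperone with antiviral activity, had 119 CPM in engineered MSC, 57.1 CPM in native MSC and 17.0 CPM (5 UMIs) in PBS, and Ifi44 had 159 CPM in engineered MSC, 46.6 CPM in native MSC and 37.4 CPM in PBS. Ifit3 had 95 CPM in engineered MSC, 10.6 CPM (5 UMIs) in native MSC and 34.0 CPM (10 UMIs) in PBS. Ifitm3 went the other way, with 1082 CPM in engineered MSC, 1005 CPM in native MSC and 1827 CPM in PBS, so that both MSC libraries were below PBS.

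Stellate cells and fibroblasts, the matrix-forming cells of the liver, also lay in 1 cluster and had 118 cells in engineered MSC, 75 in native MSC and 152 in PBS. The 35 members summed to 1599.7 CPM in engineered MSC, 916 CPM in native MSC and 1029.8 CPM in PBS, a ratio of engineered MSC to PBS of 1.55 (1.46 to 1.66). Here 7 of 35 members were at least 2-fold higher in engineered MSC (all genes 10.5%), and the median log2 ratio was 0.59 beside -0.04 over all genes. Ifit3 had 91.0 CPM in engineered MSC, 64.5 CPM in native MSC and 28.0 CPM in PBS, with both MSC libraries above PBS. Isg15 had 199 CPM in engineered MSC, 67.8 CPM in native MSC and 119.9 CPM in PBS, and Bst2 had 466 CPM in engineered MSC, 216 CPM in native MSC and 367 CPM in PBS. For these 2 members native MSC lay below PBS.

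**Figure D3:**
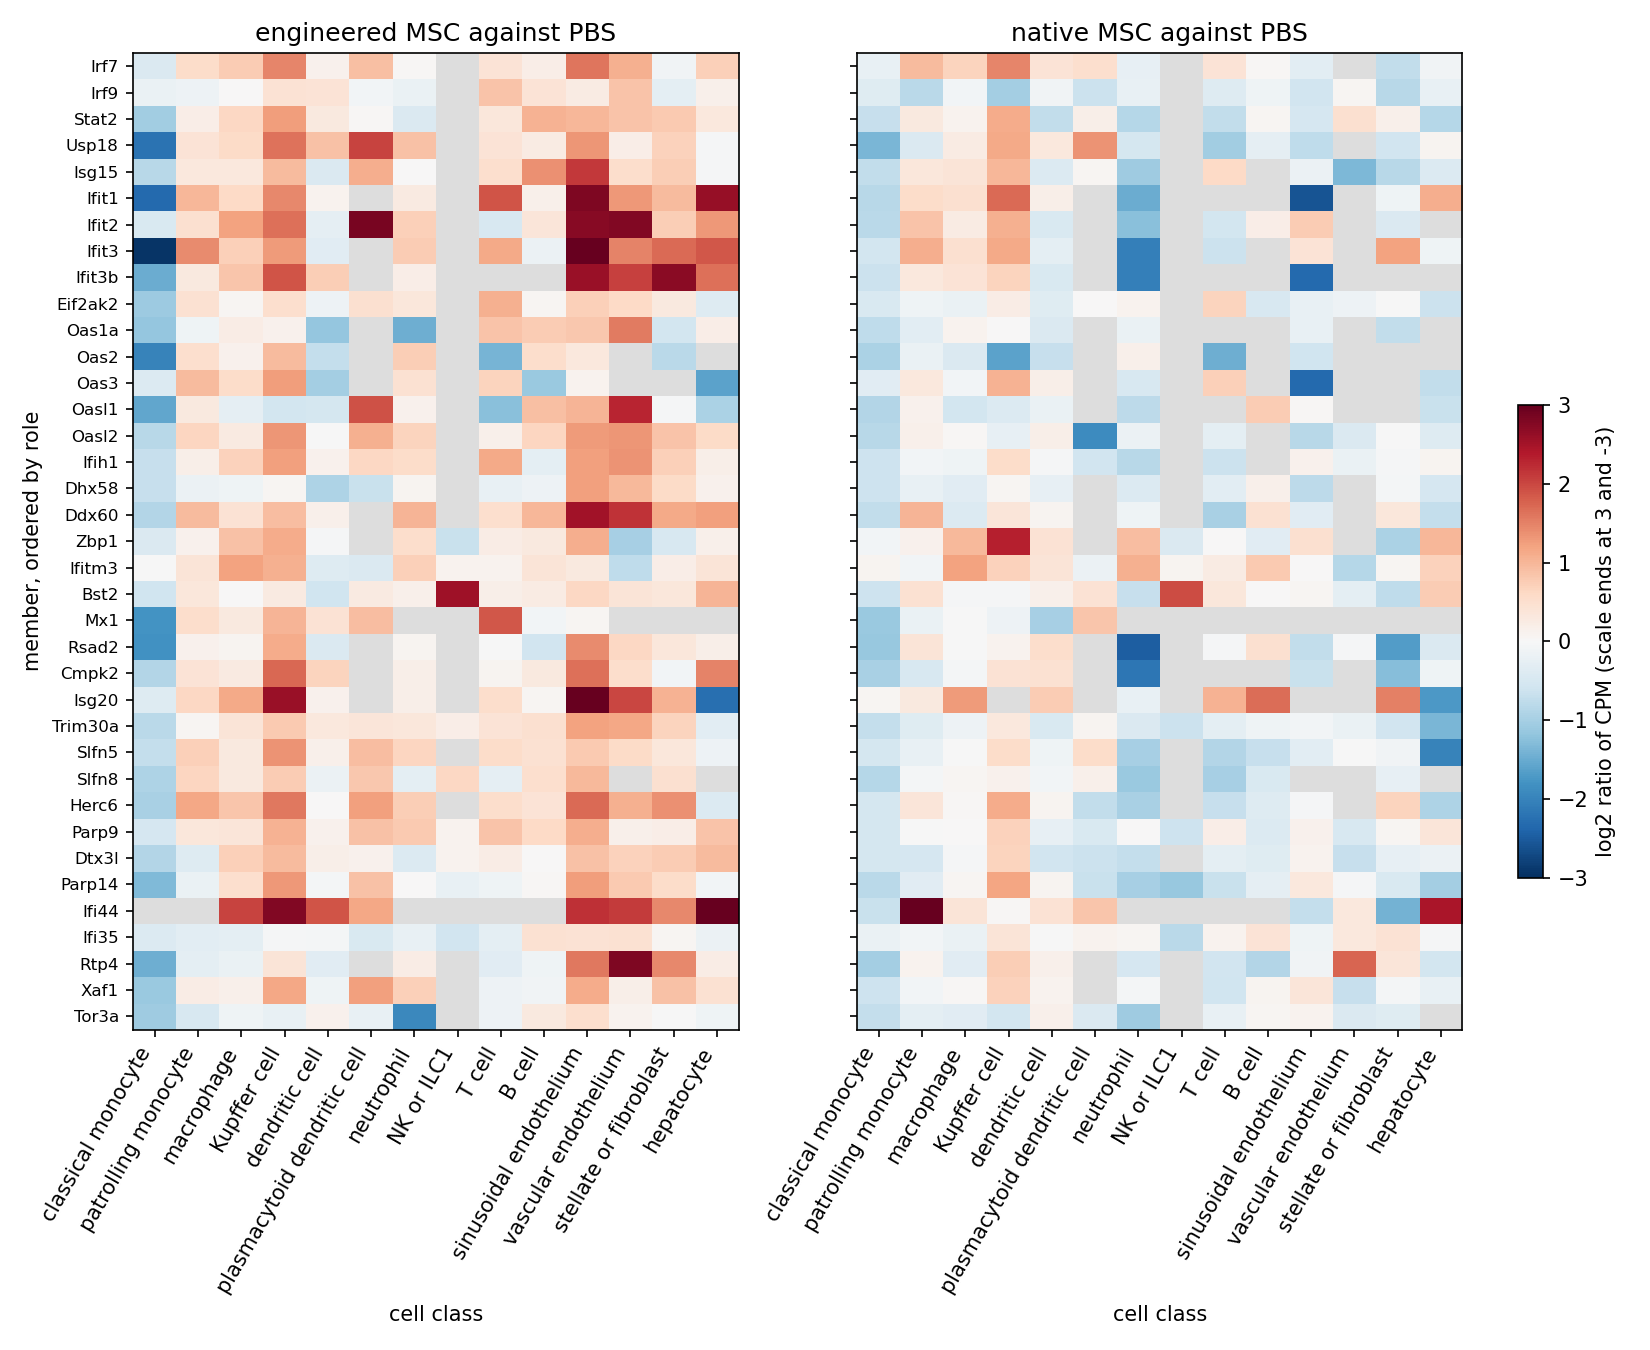
Log2 ratio of CPM to PBS for each member, grouped by role, and each of 14 classes, with engineered MSC on the left and native MSC on the right; red is higher and blue is lower than PBS, and grey marks pairs with under 20 UMIs. Columns of engineered MSC are mostly red in sinusoidal endothelium (median 1.20) and Kupffer cells (median 1.1), and the classical monocyte columns are mostly blue (medians -0.89 in engineered MSC and -0.67 in native MSC).

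Kupffer cells had the highest level of the 35 members of all classes in engineered MSC, and the class had 423 cells in engineered MSC, 31 in native MSC and 679 in PBS. The members summed to 3848 CPM in engineered MSC, 2902 CPM in native MSC and 2003 CPM in PBS, with ratios to PBS of 1.92 (1.87 to 1.97) in engineered MSC and 1.45 (1.34 to 1.56) in native MSC. In engineered MSC 22 of 37 members were at least 2-fold higher than in PBS (all genes 14.1%), 0 were at least 2-fold lower (all genes 5.89%), and the median log2 ratio was 1.1 beside 0.10 over all genes. In native MSC, with 31 cells, 10 of 36 members were at least 2-fold higher (all genes 8.0%), 2 were at least 2-fold lower (all genes 20.3%), and the median was 0.56 beside -0.17. With doublets kept, native MSC had 2 members at least 2-fold higher and a median of 0.24.

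Of the transcription factors of the module, Irf7 and Stat2 stood at like levels in Kupffer cells of the MSC libraries, while Irf9 did not. Irf7 had 150.2 CPM in engineered MSC, 149 CPM in native MSC and 54.3 CPM in PBS, and Stat2 had 137 CPM in engineered MSC, 124 CPM in native MSC and 57.6 CPM in PBS. Isg15 had 88.9 CPM in engineered MSC, 91.0 CPM in native MSC and 45.9 CPM in PBS, and Ifit3 had 109 CPM in engineered MSC, 99.2 CPM in native MSC and 44.8 CPM in PBS. For Irf7, Stat2, Isg15 and Ifit3 both MSC libraries were above PBS. Other members separated the MSC libraries. Irf9 had 68.0 CPM in engineered MSC, 24.8 CPM (6 UMIs) in native MSC and 50.6 CPM in PBS, so native MSC was lowest. Ifi44 had 83.6 CPM in engineered MSC, 12.4 CPM (3 UMIs) in native MSC and 12.1 CPM in PBS, a ratio of engineered MSC to PBS of 6.90 (5.21 to 9.24), while native MSC was at the level of PBS. Most Ifi44 UMIs of engineered MSC came from cluster 27, with 147 CPM there and 18.4 CPM (11 UMIs) in PBS. In cluster 13, which held all 31 Kupffer cells of native MSC, Ifi44 had 28.0 CPM in engineered MSC and 11.3 CPM in PBS, a smaller difference than over the class. Zbp1, a sensor of Z-form nucleic acid that can trigger cell death, had 44.2 CPM in engineered MSC, 103 CPM in native MSC and 20.5 CPM in PBS and was highest in native MSC, with a ratio to PBS of 5.04 (3.13 to 7.83).

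Further members in Kupffer cells showed the range within the module. Ifit2 had 169 CPM in engineered MSC, 112 CPM in native MSC and 53.7 CPM in PBS. Cmpk2, a nucleotide kinase encoded beside Rsad2, had 40.5 CPM in engineered MSC, 16.5 CPM (4 UMIs) in native MSC and 12.3 CPM in PBS, and Usp18 had 46.8 CPM in engineered MSC, 33.1 CPM (8 UMIs) in native MSC and 15.1 CPM in PBS. Ifitm3 had 989 CPM in engineered MSC, 765 CPM in native MSC and 471 CPM in PBS, unlike in vascular endothelium. Oasl1 was the member furthest below PBS in engineered MSC, with 75.5 CPM in engineered MSC, 82.7 CPM in native MSC and 109.9 CPM in PBS and a ratio of engineered MSC to PBS of 0.687 (0.583 to 0.807). In native MSC other members lay further below PBS, among them Oas2, with 12.4 CPM (3 UMIs) against 37.5 CPM in PBS. Cluster 13 held most Kupffer cells of every library, and there the ratio of the sum to PBS was 1.94 (1.88 to 2.00) in engineered MSC and 1.43 (1.32 to 1.54) in native MSC. In cluster 27, the other Kupffer cluster, the ratio of engineered MSC (146 cells) to PBS (59 cells) was 2.15 (2.01 to 2.30).

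Macrophages outside the Kupffer class carried Gpnmb, a gene of lipid-handling macrophages, at 1807 CPM in engineered MSC, 1435 CPM in native MSC and 2818 CPM in PBS. The class had 397 cells in engineered MSC, 867 in native MSC and 2045 in PBS, and the 35 members summed to 2289 CPM in engineered MSC, 1816 CPM in native MSC and 1812 CPM in PBS. Ratios to PBS were 1.26 (1.24 to 1.29) in engineered MSC and 1.00 (0.986 to 1.02) in native MSC. In engineered MSC 4 of 37 members were at least 2-fold higher than in PBS (all genes 7.81%) and in native MSC 2 of 37 (all genes 5.98%), shares near those of all genes. Most of these cells lay in cluster 9 in engineered MSC (380 cells) and native MSC (842 cells) but in cluster 2 in PBS (1960 cells, beside 85 in cluster 9). Within cluster 9 the ratio of the sum to PBS was 1.17 (1.09 to 1.24) in engineered MSC and 0.911 (0.856 to 0.971) in native MSC.

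A few members in macrophages were nevertheless higher in both MSC libraries. Ifitm3 had 1191 CPM in engineered MSC, 1198 CPM in native MSC and 520.0 CPM in PBS. Zbp1 had 62.7 CPM in engineered MSC, 66.6 CPM in native MSC and 34.2 CPM in PBS, and Irf7 had 101 CPM in engineered MSC, 94.9 CPM in native MSC and 59.2 CPM in PBS. The MSC libraries lay close to each other for these 3 members. Within cluster 9, Irf7 had 101 CPM in engineered MSC, 97.1 CPM in native MSC and 77.7 CPM (40 UMIs) in PBS, a smaller difference than over the class. Ifi44 had 26.5 CPM in engineered MSC, 8.46 CPM in native MSC and 6.48 CPM in PBS and Ifit2 had 80.6 CPM in engineered MSC, 41.0 CPM in native MSC and 34.6 CPM in PBS, so here engineered MSC stood above the other 2 libraries.

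Classical monocytes, which enter injured tissue from the blood and are marked by Ly6c2 and Ccr2, had the opposite direction. The class had 140 cells in engineered MSC, 2444 in native MSC and 1838 in PBS, and the 35 members summed to 1089 CPM in engineered MSC, 1308 CPM in native MSC and 2031 CPM in PBS. Ratios to PBS were 0.536 (0.508 to 0.566) in engineered MSC and 0.644 (0.633 to 0.655) in native MSC. In engineered MSC 15 of the 36 members with a ratio were at least 2-fold lower than in PBS (all genes 10.8%), with 0 at least 2-fold higher (all genes 4.4%). Members could pass the minimum of UMIs through PBS alone, as Ifit3b did with 2 UMIs in engineered MSC and 53 in PBS. In native MSC 4 of 37 were at least 2-fold lower (all genes 6.74%). Transcripts of neutrophils made up 0.217% in engineered MSC, 0.172% in native MSC and 0.0501% in PBS of the UMIs of this class, and their part was not tested. The median log2 ratio to PBS was -0.89 in engineered MSC and -0.67 in native MSC, beside -0.16 in engineered MSC and -0.18 in native MSC over all genes.

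Ifit3 had 3.77 CPM (5 UMIs) in engineered MSC, 19.9 CPM in native MSC and 29.1 CPM in PBS. Rsad2 had 21.1 CPM in engineered MSC, 34.1 CPM in native MSC and 74.7 CPM in PBS and was lower than in PBS by 3.53-fold (2.43 to 5.35) in engineered MSC and 2.19-fold (1.99 to 2.42) in native MSC. Usp18 had 5.28 CPM (7 UMIs) in engineered MSC, 9.43 CPM in native MSC and 24.4 CPM in PBS. In all 3 genes engineered MSC was lowest and PBS highest. Oas2, an enzyme that activates RNA cleavage, had 7.55 CPM (10 UMIs) in engineered MSC, 15.7 CPM in native MSC and 30.3 CPM in PBS, and Rtp4 had 38.5 CPM in engineered MSC, 52.4 CPM in native MSC and 106 CPM in PBS. Isg15 had 62.7 CPM in engineered MSC, 66.8 CPM in native MSC and 111 CPM in PBS, with the MSC libraries close to each other. Irf7 differed less, with 44.5 CPM in engineered MSC, 51.8 CPM in native MSC and 60.6 CPM in PBS, and Ifitm3, the most abundant member, had 1761 CPM in engineered MSC, 1884 CPM in native MSC and 1767 CPM in PBS.

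Both monocyte clusters kept this order. In cluster 0, which held 43 cells of engineered MSC, 852 of native MSC and 1484 of PBS, the 35 members had 1444 CPM in engineered MSC, 1498 CPM in native MSC and 2156 CPM in PBS. In cluster 1, with 97 cells of engineered MSC, 1592 of native MSC and 354 of PBS, they had 915 CPM in engineered MSC, 1188 CPM in native MSC and 1508 CPM in PBS. Members at least 2-fold lower in engineered MSC than in PBS numbered 10 of 36 in cluster 0 (all genes 14.1%) and 10 of 32 in cluster 1 (all genes 8.34%). For native MSC they numbered 2 of 37 in cluster 0 (all genes 6.0%) and 0 of 35 in cluster 1 (all genes 4.55%). The result for engineered MSC rests on how 140 cells were named. At a clustering resolution of 2, which gave this class 224 cells of engineered MSC, 0 members were at least 2-fold lower (all genes 7.14%), the median was -0.15 and the log2 ratio of Ifit3 turned to 0.25. The median of native MSC was -0.64 at that resolution. With the members among the variable genes, 8 members were at least 2-fold lower in engineered MSC than in PBS (all genes 6.43%). For native MSC the count of 4 ran between 1 and 10 under the alternatives that kept the 2-fold threshold.

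Patrolling monocytes, which crawl along vessel walls, had a high level in every library. The class had 115 cells in engineered MSC, 314 in native MSC and 721 in PBS, and the 35 members summed to 3212 CPM in engineered MSC, 2651 CPM in native MSC and 2599 CPM in PBS. Of 36 members, 2 were at least 2-fold higher in engineered MSC than in PBS (all genes 6.46%), and of 37 in native MSC 3 were (all genes 3.43%). Ifit3 had 113 CPM in engineered MSC, 90.2 CPM in native MSC and 42.1 CPM in PBS, with both MSC libraries above PBS. Irf7 had 124 CPM in engineered MSC, 163 CPM in native MSC and 84.2 CPM in PBS and was highest in native MSC, and Slfn5, a regulator of growth and viral gene expression, had 468 CPM in engineered MSC, 242 CPM in native MSC and 283 CPM in PBS and was highest in engineered MSC. Cluster 31 held 101 of these cells in engineered MSC, while cluster 11 held nearly all of them in the other 2 libraries.

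Neutrophils had 240 cells in engineered MSC, 2459 in native MSC and 613 in PBS, and their sums followed no single order. The 35 members had 3413 CPM in engineered MSC, 1698 CPM in native MSC and 2836 CPM in PBS, with ratios to PBS of 1.20 (1.14 to 1.27) in engineered MSC and 0.599 (0.577 to 0.621) in native MSC. In native MSC 10 of 35 members were at least 2-fold lower than in PBS (all genes 7.83%), 1 was at least 2-fold higher (all genes 11.8%), and the median log2 ratio was -0.52 beside 0.02 over all genes. With doublets kept, 5 members were at least 2-fold lower in native MSC (all genes 6.73%). In engineered MSC 1 of 35 was at least 2-fold higher (all genes 8.87%) and 2 were at least 2-fold lower (all genes 7.02%), with a median of 0.23.

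Rsad2 had 376 CPM in engineered MSC, 64.3 CPM in native MSC and 354 CPM in PBS in neutrophils, and was lower by 5.51-fold (4.85 to 6.25) in native MSC than in PBS. Cmpk2 had 50.9 CPM in engineered MSC, 9.93 CPM in native MSC and 44.8 CPM in PBS. Isg15 had 485 CPM in engineered MSC, 228 CPM in native MSC and 482 CPM in PBS, above its levels in classical monocytes, Kupffer cells and sinusoidal endothelium of the same libraries. For these 3 members engineered MSC and PBS were close over the class and native MSC was lowest. This did not hold within cluster 3. There Rsad2 had 49.6 CPM (8 UMIs) in engineered MSC, 46.2 CPM in native MSC and 364 CPM in PBS. Isg15 had 167 CPM in engineered MSC, 177 CPM in native MSC and 472 CPM in PBS in cluster 3. In cluster 5 Rsad2 kept the order of the class, with 281 CPM in engineered MSC, 73.1 CPM in native MSC and 304 CPM in PBS. Over the class, Ifit3 had 94.3 CPM in engineered MSC, 13.6 CPM in native MSC and 56.0 CPM in PBS, and Oasl2 had 285 CPM in engineered MSC, 159.6 CPM in native MSC and 179 CPM in PBS. Ifitm3 had 1059 CPM in engineered MSC, 1339 CPM in native MSC and 643 CPM in PBS, but within cluster 3 its log2 ratio of native MSC to PBS was -0.46.

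The neutrophil clusters stood at different levels. Cluster 30, led by Slfn4, held 123 cells of engineered MSC and 1 of PBS, and the 35 members had 5146 CPM there in engineered MSC, the highest of any cluster of the 14 classes with at least 30 cells of a library. In cluster 3, with 67 cells of engineered MSC, 1127 of native MSC and 475 of PBS, they had 986 CPM in engineered MSC, 1016 CPM in native MSC and 2775 CPM in PBS. The ratio of engineered MSC to PBS in cluster 3 was 0.355 (0.301 to 0.417), with 20 of 28 members at least 2-fold lower (all genes 12.2%), the opposite direction to the class as a whole. Members could pass the minimum of UMIs through PBS alone in this cluster, as Ifit1 did with 0 UMIs in engineered MSC and 45 in PBS. This favours calls of lower in engineered MSC. The ratio of native MSC to PBS there was 0.366 (0.347 to 0.386), with 22 of 34 at least 2-fold lower (all genes 4.62%). In cluster 5, led by Retnlg and S100a9, they had 2788 CPM in engineered MSC, 2031 CPM in native MSC and 3019 CPM in PBS. Native MSC was thus below PBS in both clusters it occupied, whereas engineered MSC ran from the level of native MSC in cluster 3 to the highest level in cluster 30.

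**Figure D4:**
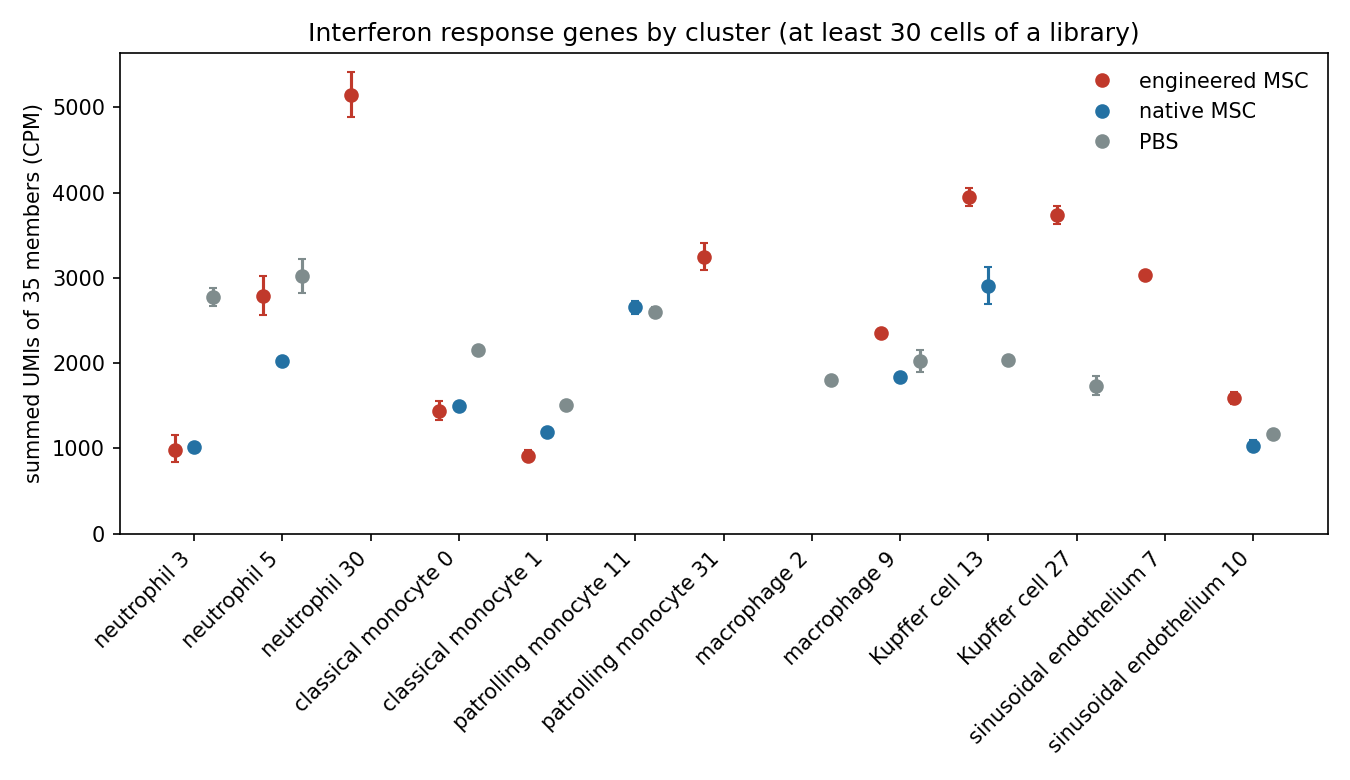
Summed level of 35 members in CPM by cluster, for clusters of the classes shown with at least 30 cells of a library, in engineered MSC, native MSC and PBS; bars are exact Poisson 95% intervals. Within neutrophils, engineered MSC ran between 986 CPM in cluster 3 and 5146 CPM in cluster 30.

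To compare single cells at equal depth, each cell was thinned to 1000 UMIs. Sinusoidal cells then held a mean of 2.96 UMIs in engineered MSC, 0.940 UMIs in native MSC and 1.21 UMIs in PBS of the 35 members. At least 5 such UMIs were found in 20.3% (18.3 to 22.5) of sinusoidal cells of engineered MSC, in 0 of 83 in native MSC (upper limit 4.35%) and in 1.93% (1.18 to 2.96) in PBS. At least 1 was found in 88.8% in engineered MSC, 60.2% in native MSC and 65.6% in PBS, against 41.0% in engineered MSC, 34.5% in native MSC and 45.7% in PBS for hepatocytes, the class with the lowest level. Before thinning the shares of sinusoidal cells were 99.7% in engineered MSC, 98.8% in native MSC and 97.4% in PBS, at median depths of 5482 UMIs in engineered MSC, 9486 UMIs in native MSC and 6109.5 UMIs in PBS, and those of hepatocytes were 73.9% in engineered MSC, 82.0% in native MSC and 77.2% in PBS, at 2694 UMIs in engineered MSC, 5869.5 UMIs in native MSC and 2934 UMIs in PBS. The tenth of sinusoidal cells with most member UMIs held 28.9% in engineered MSC, 29.5% in native MSC and 31.8% in PBS of all such UMIs of the class, a share that also depends on the mean number per cell.

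In Kupffer cells the share of high cells was larger in both MSC libraries than in PBS, and in classical monocytes it was smaller. At least 5 member UMIs were found in 40.1% in engineered MSC, 35.5% in native MSC and 11.2% in PBS of thinned Kupffer cells, and in 5.0% in engineered MSC, 4.83% in native MSC and 11.3% in PBS of classical monocytes. The tenth of neutrophils with most member UMIs held 47.9% in engineered MSC, 45.3% in native MSC and 47.7% in PBS of all such UMIs of the class, against 26.1% in engineered MSC, 27.4% in native MSC and 28.5% in PBS in Kupffer cells. The variance over the mean was 8.77 in engineered MSC, 5.07 in native MSC and 11.6 in PBS in neutrophils and 2.36 in engineered MSC, 2.74 in native MSC and 1.59 in PBS in Kupffer cells. Both measures were higher in neutrophils than in Kupffer cells in each library, and both also depend on the mean.

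**Figure D5:**
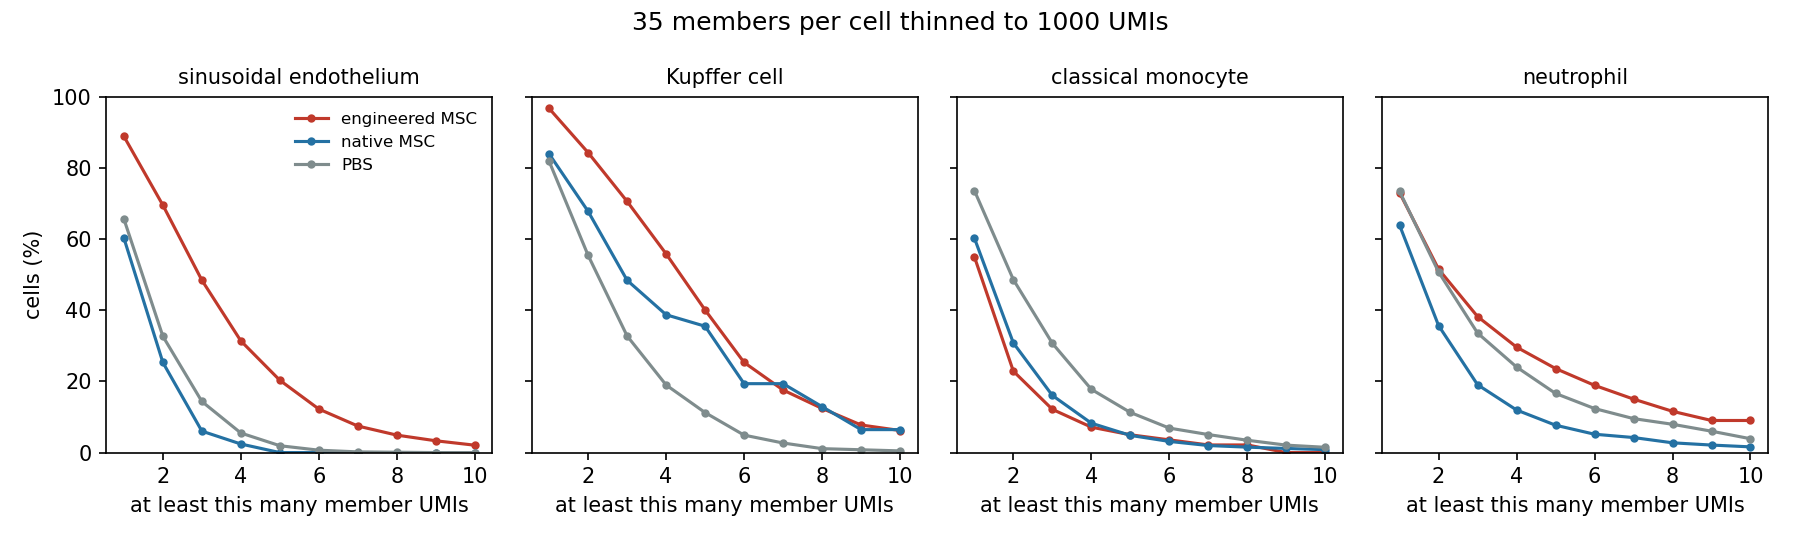
Share of cells (%) by number of UMIs of 35 members after thinning to 1000 UMIs per cell, in engineered MSC, native MSC and PBS. In sinusoidal endothelium 20.3% of cells of engineered MSC held at least 5, against 0 of 83 cells in native MSC and 1.93% in PBS.

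The dendritic classes, each in 1 cluster, differed from each other. Dendritic cells other than plasmacytoid ones had 176 cells in engineered MSC, 124 in native MSC and 444 in PBS, and the 35 members summed to 1852 CPM in engineered MSC, 1642 CPM in native MSC and 1791 CPM in PBS, a ratio of engineered MSC to PBS of 1.03 (0.988 to 1.08). Of 37 members, 1 was at least 2-fold higher (all genes 7.22%) and 2 were at least 2-fold lower (all genes 5.78%) in engineered MSC. Usp18 had 44.7 CPM in engineered MSC, 30.1 CPM in native MSC and 24.3 CPM in PBS, while Bst2 had 253 CPM in engineered MSC, 427 CPM in native MSC and 385 CPM in PBS and so ran in the other direction. Plasmacytoid dendritic cells, known as strong producers of interferon alpha, had 101 cells in engineered MSC, 57 in native MSC and 142 in PBS, and the 35 members summed to 2498 CPM in engineered MSC, 1790.4 CPM in native MSC and 1680.2 CPM in PBS. In these cells 8 of 25 members were at least 2-fold higher in engineered MSC than in PBS (all genes 4.33%), with a median log2 ratio of 0.87 beside -0.04 over all genes. Usp18 had 88.0 CPM in engineered MSC, 54.7 CPM in native MSC and 21.5 CPM in PBS, Irf7 had 152 CPM in engineered MSC, 115 CPM in native MSC and 81.8 CPM in PBS, and Bst2, a surface marker of this cell type in mice, had 3131 CPM in engineered MSC, 3497 CPM in native MSC and 2587 CPM in PBS.

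NK cells and ILC1 had 92 cells in engineered MSC, 91 in native MSC and 32 in PBS and low levels, with sums of 813 CPM in engineered MSC, 501 CPM in native MSC and 766 CPM in PBS. The ratio of engineered MSC to PBS was 1.06 (0.828 to 1.37), an interval that includes 1, and that of native MSC to PBS was 0.653 (0.510 to 0.845). At this depth only 9 members had enough UMIs for a ratio of engineered MSC to PBS, and 1 was at least 2-fold higher (all genes 9.63%). This was Bst2, with 109.9 CPM in engineered MSC, 73.8 CPM in native MSC and 18.9 CPM (2 UMIs) in PBS.

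T cells had 642 cells in engineered MSC, 293 in native MSC and 260 in PBS, and the 35 members summed to 1240.5 CPM in engineered MSC, 814 CPM in native MSC and 1003 CPM in PBS. In engineered MSC 5 of 35 members were at least 2-fold higher than in PBS (all genes 8.46%) and 2 were at least 2-fold lower (all genes 2.93%). Ifit1 had 21.9 CPM in engineered MSC, 7.71 CPM in native MSC and 5.89 CPM (5 UMIs) in PBS. Most T cells of engineered MSC lay in cluster 18, and within cluster 16, shared by all libraries, the ratio of the sum to PBS was 1.24 (1.13 to 1.37) in engineered MSC and 0.802 (0.734 to 0.876) in native MSC. B cells had 1607 cells in engineered MSC, 346 in native MSC and 595 in PBS, and sums of 962 CPM in engineered MSC, 691 CPM in native MSC and 743 CPM in PBS. Of these, 1593 cells of engineered MSC, 2 of native MSC and 1 of PBS lay in cluster 4, and 14 of engineered MSC, 344 of native MSC and 594 of PBS lay in cluster 12. In engineered MSC 2 of 35 members were at least 2-fold higher than in PBS (all genes 8.45%), among them Stat2, with 60.1 CPM in engineered MSC, 30.3 CPM in native MSC and 29.0 CPM in PBS.

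Hepatocytes had 2233 cells in engineered MSC, 838 in native MSC and 350 in PBS, with median mitochondrial shares of 0.825% in engineered MSC, 0.0848% in native MSC and 0.176% in PBS of their UMIs. In engineered MSC 8 of 34 members were at least 2-fold higher than in PBS (all genes 14.7%) and 2 were at least 2-fold lower (all genes 9.63%). For 2 of these 8 the interval of the ratio included 1, and 3 of the 8 (Ifi44, Ifit1 and Ifit3b) had at most 3 UMIs in PBS. Members could pass the minimum of UMIs through engineered MSC alone, which had 7574751 UMIs in this class against 1525656 in PBS. Ifit3 had 16.8 CPM in engineered MSC, 4.18 CPM in native MSC and 4.59 CPM (7 UMIs) in PBS, and Bst2 had 394 CPM in engineered MSC, 331 CPM in native MSC and 194 CPM in PBS. Isg20 had 3.83 CPM in engineered MSC, 5.53 CPM in native MSC and 18.4 CPM in PBS and was highest in PBS. Most hepatocytes of engineered MSC lay in clusters 6 and 17, and within cluster 8, which held most of those of the other libraries, the ratio of the sum to PBS was 0.820 (0.736 to 0.913) in engineered MSC, below 1, although it was 1.11 (1.03 to 1.19) over the class.

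Set against native MSC, engineered MSC stood higher most widely in endothelium. In sinusoidal endothelium 23 of 36 members were at least 2-fold higher (all genes 11.1%) and 0 at least 2-fold lower (all genes 7.23%), with a median log2 ratio of 1.58. In vascular endothelium 17 of 33 members were at least 2-fold higher (all genes 10.1%) and 0 at least 2-fold lower (all genes 6.08%), and in stellate cells and fibroblasts 12 of 32 members were at least 2-fold higher (all genes 8.65%) and 0 at least 2-fold lower (all genes 6.13%). No member was at least 2-fold lower in these 3 classes. The interval of the ratio included 1 for 3 of the 23 in sinusoidal endothelium, 2 of the 17 in vascular endothelium and 2 of the 12 in stellate cells and fibroblasts. In native MSC, 5 of the 23 and 3 of the 17 had at most 3 UMIs. Members could pass the minimum of UMIs through engineered MSC alone, which in vascular endothelium had 2494498 UMIs against 472458 in native MSC. In Kupffer cells 8 of 36 members were at least 2-fold higher (all genes 24.1%) and 1 at least 2-fold lower (all genes 4.75%), a share close to that of all genes. In macrophages 1 of 37 members was at least 2-fold higher (all genes 4.9%) and 0 at least 2-fold lower (all genes 1.61%), in classical monocytes 0 of 36 members were at least 2-fold higher (all genes 6.26%) and 3 at least 2-fold lower (all genes 6.66%) and in patrolling monocytes 0 of 37 members were at least 2-fold higher (all genes 8.83%) and 1 at least 2-fold lower (all genes 7.39%). In these myeloid classes the shares of members 2-fold apart between the MSC libraries were near or below those of all genes, so they do not set the module apart. In neutrophils 13 of 35 members were at least 2-fold higher (all genes 9.41%) and 1 at least 2-fold lower (all genes 9.1%). In dendritic cells other than plasmacytoid ones 4 of 37 members were at least 2-fold higher (all genes 11.2%) and 1 at least 2-fold lower (all genes 5.7%), and in plasmacytoid dendritic cells 7 of 24 members were at least 2-fold higher (all genes 8.22%) and 0 at least 2-fold lower (all genes 3.41%). In NK cells and ILC1, 1 of 13 members was at least 2-fold higher (all genes 8.76%) and 0 at least 2-fold lower (all genes 6.72%), in T cells 10 of 34 members were at least 2-fold higher (all genes 9.87%) and 0 at least 2-fold lower (all genes 5.15%), in B cells 5 of 35 members were at least 2-fold higher (all genes 10.9%) and 3 at least 2-fold lower (all genes 2.55%) and in hepatocytes 11 of 35 members were at least 2-fold higher (all genes 16.8%) and 0 at least 2-fold lower (all genes 4.66%).

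For native MSC set against PBS, the shares of members 2-fold apart in the remaining classes were mostly near or below those of all genes. In vascular endothelium 1 of 19 members was at least 2-fold higher (all genes 6.61%) and 1 at least 2-fold lower (all genes 6.98%), and in stellate cells and fibroblasts 2 of 32 members were at least 2-fold higher (all genes 10.4%) and 3 at least 2-fold lower (all genes 12.3%). In dendritic cells other than plasmacytoid ones 0 of 37 members were at least 2-fold higher (all genes 2.58%) and 0 at least 2-fold lower (all genes 6.48%), in plasmacytoid dendritic cells 1 of 21 members was at least 2-fold higher (all genes 2.23%) and 1 at least 2-fold lower (all genes 5.6%) and in NK cells and ILC1, 1 of 7 members was at least 2-fold higher (all genes 14.8%) and 1 at least 2-fold lower (all genes 12.1%). Beside the shares of all genes, these counts do not set the module apart. In T cells 1 of 30 members was at least 2-fold higher (all genes 7.41%) and 2 at least 2-fold lower (all genes 5.94%), in B cells 1 of 25 members was at least 2-fold higher (all genes 2.3%) and 0 at least 2-fold lower (all genes 4.5%) and in hepatocytes 2 of 30 members were at least 2-fold higher (all genes 7.77%) and 4 at least 2-fold lower (all genes 13.7%). In the other direction to the counts given above, classical monocytes of native MSC had 0 members at least 2-fold higher than PBS (all genes 4.42%), macrophages 0 lower (all genes 6.74%) and patrolling monocytes 0 lower (all genes 3.41%). Engineered MSC had 0 members at least 2-fold lower than PBS in macrophages (all genes 5.36%), 0 in patrolling monocytes (all genes 7.86%), 0 in plasmacytoid dendritic cells (all genes 3.31%), 0 in NK cells and ILC1 (all genes 5.1%), 1 in B cells (all genes 3.73%) and 0 in stellate cells and fibroblasts (all genes 9.32%).

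Members were also followed across classes. Irf9, which had a ratio of engineered MSC to PBS in 13 classes, was at least 2-fold higher in 0 of them, with a median log2 ratio of 0.15. Ifi44 had, in classical monocytes, 0 UMIs in engineered MSC, 17 in native MSC and 16 in PBS, too few for a ratio of engineered MSC to PBS. Because a minimum of UMIs admits a member through the library where it is high, the number of classes in which such a member stood above PBS is not given. Both MSC libraries are set against the same PBS library, whose counts they share, and the classes of a library come from 1 mouse.

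Transcripts of the interferons that start this response were few. The rows of 13 interferon alpha genes held 0 UMIs over 27840 cells. Ifnb1, the gene of interferon beta, held 2 UMIs in engineered MSC, 1 in native MSC and 3 in PBS. Ifnk, the gene of interferon kappa, held 6 UMIs in engineered MSC, 11 in native MSC and 3 in PBS, and Ifnz held 1 UMI in each library. Ifng, the gene of interferon gamma, a separate interferon that T and NK cells make and that can also raise some members, held 654 UMIs in engineered MSC, 777 in native MSC and 172 in PBS. Of these, cells left without a name supplied 469 in engineered MSC, 380 in native MSC and 124 in PBS. T cells supplied 89 in engineered MSC, 228 in native MSC and 15 in PBS. NK cells and ILC1 supplied 78 in engineered MSC, 148 in native MSC and 18 in PBS.

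Other genes of the pathway were described by list, and the shares of all genes in sinusoidal endothelium were 10.9% higher and 10.1% lower in engineered MSC than in PBS. In sinusoidal endothelium the receptors and kinases had 0 of 8 genes at least 2-fold higher and 0 at least 2-fold lower in engineered MSC than in PBS, with a median log2 ratio of 0.05. Nucleic acid sensors and adaptors outside the module had 1 of 16 higher and 2 lower, median -0.01. Other interferon-induced genes had 21 of 52 higher and 2 lower, median 0.64. Genes that respond strongly to interferon gamma had 13 of 18 higher and 2 lower, median 1.42, and in native MSC 1 of 16 higher (all genes 5.58%), median 0.19. Cxcl9, a chemokine for activated T cells, had 137 CPM in engineered MSC, 56.4 CPM in native MSC and 25.2 CPM in PBS, and Gbp2, a guanylate-binding protein, had 42.5 CPM in engineered MSC, 12.8 CPM in native MSC and 8.80 CPM in PBS. Cxcl10, a related chemokine, had 149.9 CPM in engineered MSC, 161 CPM in native MSC and 35.5 CPM in PBS and was high in both MSC libraries.

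In Kupffer cells, genes that respond to interferon gamma were at least 2-fold higher than in PBS for 12 of 16 in engineered MSC (all genes 14.1%), median 1.52, and for 11 of 16 in native MSC (all genes 8.0%), median 1.36. Iigp1, a GTPase that attacks the vacuoles of microbes, had 217 CPM in engineered MSC, 136 CPM in native MSC and 38.6 CPM in PBS. In macrophages that list had 9 of 16 at least 2-fold higher in engineered MSC (all genes 7.81%) and 7 of 17 in native MSC (all genes 5.98%), with medians of 1.52 in engineered MSC and 0.77 in native MSC, while the medians of the module were 0.37 in engineered MSC and 0.02 in native MSC. In classical monocytes it had 3 of 16 higher (all genes 4.4%) and 2 lower (all genes 10.8%) in engineered MSC, median -0.02, while the other interferon-induced genes had 2 of 54 higher and 6 lower, median -0.62. The part of interferon gamma in these levels was not tested.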

How the data were processed

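Droplet 3′ single-cell RNA sequencing was measured in 3 mouse liver libraries, 1 per group. The authors deposited filtered matrices of UMI counts per gene and barcode, made with Cell Ranger 7.1.0 on GRCm39, per the submitters' processing notes. These counts were used as deposited, with 62564254 to 84950721 UMIs per library, and no column of per-sample values was left unused. The members and lists were chosen with earlier results of these data known.

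Barcodes with at least 200 genes, 500 UMIs and at most 20% mitochondrial UMIs were kept, and the barcodes with the highest Scrublet scores were removed as doublets at 0.8% per 1000 barcodes. Cells were clustered with scanpy 1.11.5 (2000 variable genes without the members and wider interferon lists, 30 principal components, 15 neighbours, Leiden resolution 1 with leidenalg 0.10.2). Clusters were named from 27 marker lists by the mean log2 fold of the markers (levels plus 5 CPM), which had to be at least 0.5 and to lead the next lineage by as much, with at least 3 markers at 1.5-fold and no more markers of another lineage than of its own among the leading 10 genes. Where no marker of the list was among those 10, the score had to reach 2, a minimum set after the data were seen. Classes with at least 30 cells in every library were compared. UMIs were summed per class and library and divided by the class total (CPM). Ratios used a minimum of 20 UMIs in the pair and exact conditional binomial 95% intervals (scipy 1.17.1), levels used exact Poisson intervals and shares of cells exact Clopper-Pearson intervals, and a call was a ratio of at least 2-fold. The interval code was tested on simulated data.

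Per class and comparison, up to 6 members per direction with the interval bound furthest from equality could be named, and always Irf7, Stat2, Irf9, Usp18, Isg15, Ifit1, Ifit3, Rsad2, Oasl2, Bst2 and Ifitm3; of each wider list, up to 4 genes. Over whole libraries every member could be named. Alternatives changed the cell filters, doublets, clustering, scaling, the UMI minimum and the fold. Promoters came from RefSeq (GRCm38.p6), where 28 members had an entry. Mx2 was not analysed here.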

Additional observations from a re-analysis of the deposited data

Results flagged for a closer look

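Within the same comparison of engineered MSC with PBS, classes stood on opposite sides of PBS by at least 1.5-fold, with intervals of counting error clear of equality. The log2 ratio of the summed 35 members (without Ifitm3 and Bst2) was 1.29 in sinusoidal endothelium, 0.94 in Kupffer cells, 0.93 in vascular endothelium and 0.64 in stellate cells and fibroblasts, and it was -0.90 in classical monocytes. With 1 mouse per group the difference between these classes was not tested. Both ends depended on the clusters. In sinusoidal cluster 10, which the libraries shared, the ratio of engineered MSC to PBS was 1.36, under 1.5-fold. In classical monocytes it was 0.670 in cluster 0, also under 1.5-fold, and 0.607 in cluster 1. At a clustering resolution of 2 the median log2 ratio of the members in classical monocytes was -0.15, and 0 members were at least 2-fold lower (all genes 7.14%).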

How the results depend on the processing

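Counts below are of members at least 2-fold higher or lower, over class and member pairs or in 1 class, and the cause of each change was not tested. At a fold of 1.5, pairs higher in engineered MSC than in PBS numbered 179 (99 at 2-fold) and lower 45 (24); in native MSC against PBS they numbered 50 higher (25) and 103 lower (31); in engineered MSC against native MSC they numbered 201 higher (112) and 26 lower (10). Over all genes and classes, the shares higher and lower at 1.5-fold were 17.4% and 16.4% in engineered MSC against PBS (9.45% and 7.06% at 2-fold), 13.6% and 19.8% in native MSC against PBS (6.49% and 8.68%), and 21.0% and 13.3% in engineered MSC against native MSC (10.7% and 5.46%). At that fold classical monocytes had 27 members lower in engineered MSC than in PBS (15) and 24 in native MSC (4), and neutrophils 17 lower in native MSC than in PBS (10); all genes lower at that fold were 21.3%, 17.2% and 17.8% in these 3 comparisons (10.8%, 6.74% and 7.83% at 2-fold). With at least 100 UMIs, engineered MSC had 15 pairs lower than PBS, native MSC 14 higher and 14 lower than PBS, and engineered MSC 74 higher and 5 lower than native MSC, with all genes at 4.62%, 3.55%, 5.29%, 6.25% and 2.84% in that order. With no minimum of UMIs, native MSC had 40 higher and 62 lower than PBS, and engineered MSC 20 lower than native MSC, with all genes at 15.7%, 15.6% and 14.0%. At resolution 2, engineered MSC had 11 pairs lower than PBS (all genes 7.15%), native MSC 12 higher than PBS (5.94%), engineered MSC 5 lower than native MSC (5.32%), and classical monocytes 0 lower in engineered MSC than in PBS (7.14%). With the members among the variable genes, engineered MSC had 15 pairs lower than PBS (all genes 6.83%), 8 of them in classical monocytes (6.43%). With doublets kept, native MSC had 15 pairs higher than PBS (all genes 6.55%), engineered MSC 27 lower than native MSC (5.7%), and neutrophils 5 lower in native MSC than in PBS (6.73%). With each cell counted alike, engineered MSC had 6 pairs lower than native MSC (all genes 7.27%). Classical monocytes had 10 members lower in native MSC than in PBS with each cell counted alike (all genes 7.72%), 1 at a mitochondrial limit of 10% (5.04%), 1 with median ratio scaling (5.09%) and 2 within 1 cluster (6.0%). Within 1 cluster, neutrophils had 22 lower in native MSC than in PBS (all genes 4.62%), and sinusoidal endothelium had 4 higher in engineered MSC than in PBS (23 over the class), with the shares of all genes given above. The counts of 22 in Kupffer cells and 15 in vascular endothelium, higher in engineered MSC than in PBS, stayed within 1.5 times under every alternative that gave a value.

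Signs turned for these log2 ratios. In classical monocytes at resolution 2, Ifit3 had 0.25 in engineered MSC against PBS, and against native MSC Ifit1 had 0.15 and Ifit3 0.73 (0.29 with the members among the variable genes). With doublets kept, the sum in NK cells of engineered MSC against native MSC had -0.21, Ifit3 in T cells of engineered MSC against PBS -0.43, Isg15 in B cells of engineered MSC against PBS -1.06 and Ifit3 in B cells of engineered MSC against native MSC -0.39. Usp18 in T cells of native MSC against PBS had 0.042 with doublets kept, 0.019 at 500 genes, 0.025 at the 10% limit and 0.028 with no mitochondrial limit. Within 1 cluster, Ifitm3 in neutrophils of native MSC against PBS had -0.46, and hepatocytes of engineered MSC against native MSC had a median of -0.041 and -0.12 for Ifit1.

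The fits within 1 cluster and without cells above 20 member UMIs per 1000 were chosen after seeing the data. At resolution 2 some comparisons gave no value, since Kupffer cells of native MSC then numbered 28. Depth was lowest in NK cells of PBS (105681 UMIs), Kupffer cells of native MSC (241859) and vascular endothelium of PBS (294471). No paired analysis was possible because each group held 1 library.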

Other observations

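Of the interferon-induced genes outside the module, Ifitm1, a relative of Ifitm3, was above PBS in both MSC libraries and highest in native MSC in macrophages, classical monocytes and neutrophils. In macrophages it had 6.78 CPM in engineered MSC, 36.9 CPM in native MSC and 3.40 CPM in PBS. In classical monocytes it had 120.0 CPM in engineered MSC, 136 CPM in native MSC and 22.7 CPM in PBS, and in neutrophils 2417 CPM in engineered MSC, 6479 CPM in native MSC and 1136 CPM in PBS. Transcripts of neutrophils in classical monocytes were also higher in both MSC libraries than in PBS, as given above. The part of such transcripts in the Ifitm1 levels outside neutrophils was not tested. Ly6a, a surface protein that interferons raise in many mouse cells, had 141 CPM in engineered MSC, 105 CPM in native MSC and 11.8 CPM in PBS in macrophages and 219 CPM in engineered MSC, 103 CPM in native MSC and 26.3 CPM in PBS in Kupffer cells, and was above PBS in both MSC libraries in these classes. Both genes come from the wider list of interferon-induced genes and were chosen outside the naming rule, after their values were seen.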
